A study of Mus musculus with 2 samples.

Results

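The genes of the cytosolic ribosomal proteins, the proteins that build the small and the large subunit of the cell's main ribosomes, were followed in mouse leukemia-initiating cells that were Jam3-null or wild type (WT). They were chosen by gene name from the array's annotation: names starting with Rpl or Rps and a digit, together with Rpsa, Rplp0, Rplp1, Rplp2 and Fau, without the Rps6k kinases and without names ending in -ps or holding -rs. This rule took 87 of the 27370 genes on the array, and 86 of the 87 were well above background on both arrays. They were the genes of 46 large-subunit and 32 small-subunit proteins, 7 variant genes that resemble one of these, and 2 genes that the name rule takes but that are not ribosomal protein genes. These last 2 were Rps19bp1, which encodes a binding partner of the protein of Rps19, and the numbered pseudogene Rps15a-ps4.

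Both groups were YFP-positive cells of acute myeloid leukaemias carrying MLL-AF9-YFP, sorted from the bone marrow of female mice as Mac-1-positive and c-Kit-positive. MLL-AF9 is a fusion oncoprotein, and leukemia-initiating cells are the fraction of a leukaemia able to start the disease again. The study asked which transcripts differ in such cells without Jam3, an adhesion molecule of the immunoglobulin superfamily. Each genotype was measured on 1 one-colour array, and each array was labelled as cells of 3 mice, so no difference has a replicate check and no p-value is given. The age of the mice, the kind of Jam3 allele and the way the RNA of 3 mice was combined are not given in the sources used here.

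A ribosome joins amino acids into protein, and each of its proteins is needed in about equal amount, so their genes are usually transcribed and their mRNAs translated together. Most of these mRNAs begin with a terminal oligopyrimidine (TOP) run, a C followed by more C and T letters, through which mTOR signalling sets how well they are translated. Before they are built into a subunit the proteins are carried to the nucleolus, where ribosome biogenesis factors cut, fold and pack the ribosomal RNA. In blood formation the dose of single ribosomal proteins matters, as the inherited red cell failure of Diamond-Blackfan anaemia and the 5q minus syndrome show.

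All values are processed signals of the scanner, and a difference is the log2 signal of the Jam3-null array minus that of the WT array after each array was scaled to its own 75th percentile. A negative difference therefore means a lower signal on the Jam3-null array. The scanner's error model gave an SD of 0.20 for the difference of each of the 86 measured genes but Rpl3l, for which it was 0.31. For 127 probes printed in repeat spots the median SD of the difference was 0.09. Both cover measurement error on these arrays only. Well above background were 55.0% of the non-control spots of the Jam3-null array and 61.8% of those of the WT array. Neither of the 2 Jam3 probes was well above background on either array (28.1 and 5.09, and 5.40 and 3.23), so the targeted gene did not check the labels, and the extent of any deleted part is unknown here. Of the genes used in the sort, Kit had 1237 on the Jam3-null and 1244 on the WT array, and Itgam, which encodes the Mac-1 chain, had 3703 and 302. All 10 neutrophil markers of a fixed list were at least 2-fold higher on the Jam3-null array, with a summed signal of 1007370 against 177394. Of the other lists, 4 of 7 erythroid markers (summed signal 1860 against 651), 2 of 6 B cell (7838 against 11359), 4 of 6 T cell (282 against 294), 2 of 5 mast cell and basophil (2140 against 12894) and 2 of 5 megakaryocyte markers (748 against 400) were well above background on both arrays. Cd79a, Pax5, Cd8a, Ms4a2 and Ppbp were well above background on neither array. The part of these marker differences in the results that follow was not tested.

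Ribosomal protein genes were nearly all slightly lower on the Jam3-null array in the main processing. Their median was near that of other bright genes, which were less bright than the family. Of the 86 measured genes 78 were lower and 8 were higher, with a median difference of -0.22, a median size of 1.16-fold. The middle 50% of them lay between -0.36 and -0.09. Over all 14351 genes measured on both arrays 55.2% were lower, the median was -0.07, and the middle 50% lay between -0.49 and 0.39. The ribosomal protein genes were thus spread far less. After cyclic loess normalization, which removes a trend with brightness, the median of the ribosomal protein genes was 0.09 and only 31 of 86 were lower, beside a median of 0.06 over all genes. Under the other processings between 64 and 85 genes were lower. The direction of the family therefore depends on the processing, and its median changed sign with cyclic loess only. Past a mean signal of 100000 the measured genes were 65 of the family and 118 others, and cyclic loess was fitted to both. How far it took up a shift shared by the family was not tested. In sorted bulk cells a smaller share of some cells and less RNA per cell cannot be told apart.

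None of the 86 differed by 2-fold under any processing: 0 were higher and 0 lower by that much, where 10.3% of all measured genes were higher and 8.63% lower. At the smaller threshold of 1.5-fold 1 gene, Rpl3l, was higher and 9 genes were lower, beside 18.5% of all measured genes higher and 20.3% lower. Of the 86 genes 46 (53.5%) were lower by more than 1 SD of the error model and 18 (20.9%) by more than 2 SD, beside 40.3% and 27.8% of all measured genes. Higher by more than 1 SD and by more than 2 SD was 1 gene, beside 32.2% and 23.0% of all measured genes. The 86 genes held 15.5% of the summed signal of all measured genes in the Jam3-null sample and 16.6% in the WT sample.

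**Figure D1:**
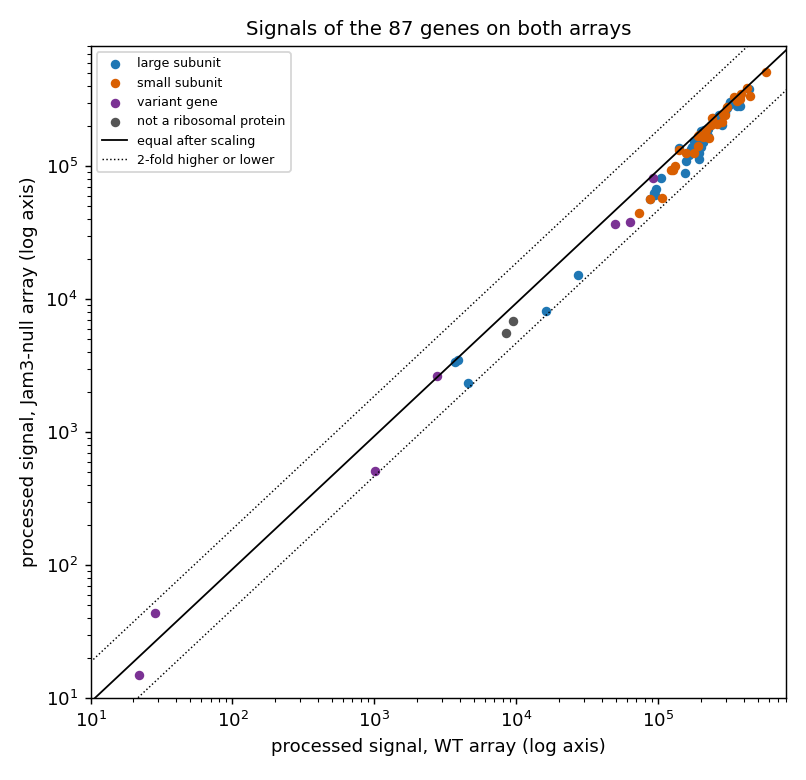
Processed signal of each of the 87 genes on the WT array (horizontal, log axis) and on the Jam3-null array (vertical, log axis), coloured by group. The solid line marks equal signals after scaling and the dotted lines a 2-fold difference; the points lie between the dotted lines, most of them just under the solid line.

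Most genes of each subunit were lower in the main processing, where 55.2% of all measured genes were lower. Of the 46 large-subunit genes 43 were lower, with a median of -0.23 and a range from -0.89 to 0.06, and 5 were at least 1.5-fold lower. Of the 32 small-subunit genes 29 were lower, with a median of -0.20 and a range from -0.79 to 0.05, and 2 were at least 1.5-fold lower. After cyclic loess normalization the medians were 0.08 and 0.13. Genes of the 33 proteins found in bacterial, archaeal and eukaryotic ribosomes had a median of -0.20, and the other 45 standard genes had a median of -0.22.

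**Figure D2:**
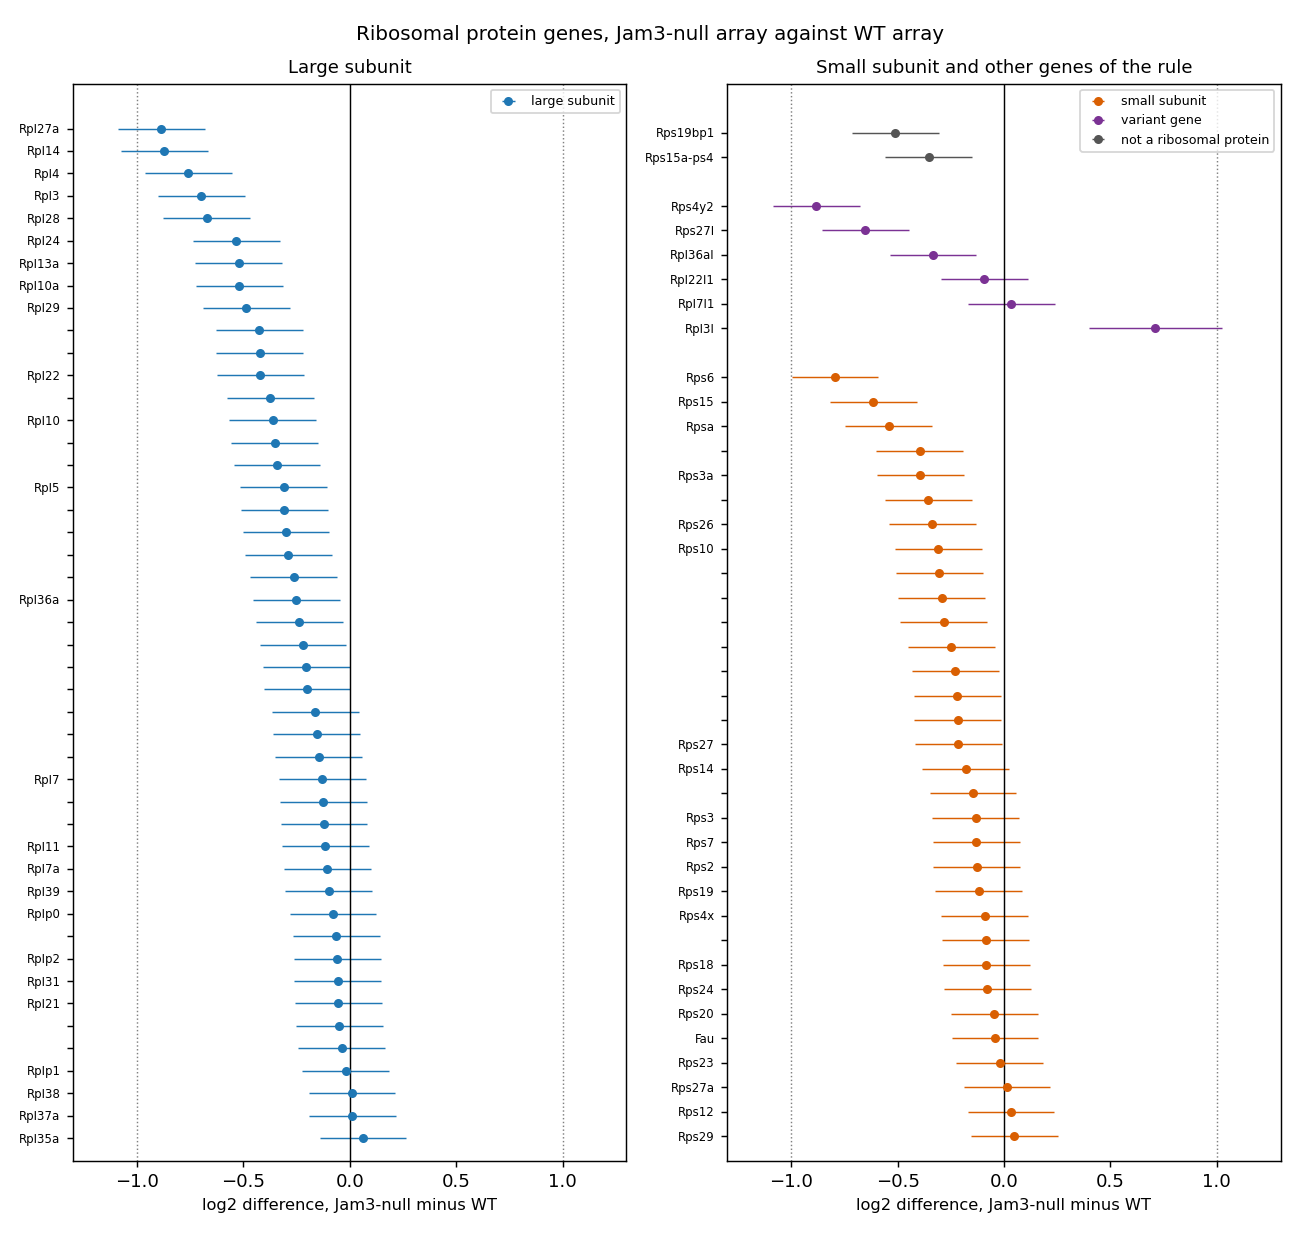
Log2 difference, Jam3-null minus WT, of the 86 genes measured on both arrays (points), with the error-model SD as bars and names for the genes described in the text; the left panel holds the large subunit, the right panel the small subunit, the variant genes and the 2 genes that are not ribosomal protein genes. Dotted lines mark 2-fold. In the large subunit 43 of 46 and in the small subunit 29 of 32 points lie left of 0, in one unbroken slope and not as 2 classes.

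The large-subunit genes with the lowest values were Rpl27a, Rpl14, Rpl4, Rpl3 and Rpl28. Rpl27a had a signal of 8127 in the Jam3-null and 16051 in the WT sample, a difference of -0.89 (1.85-fold lower). Rpl14 had 2326 and 4553, a difference of -0.87. Rpl4, whose protein lines the tunnel through which the new chain leaves, had 15128 and 27376 (-0.76). All 3 were read by dimmer probes than most of the family. Rpl3, whose protein lies close to the site of peptide bond formation, had 89405 and 155120 (-0.70), and Rpl28 had 113900 and 194216 (-0.67). Below 1.5-fold came Rpl24 at -0.53, Rpl13a and Rpl10a both at -0.52 and Rpl29 at -0.49. Rpl27a and Rpl14 were at least 1.5-fold lower under each of the 13 processings, the main one included. Besides them only Rps4y2 was, over the processings that kept its probe.

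Rps6 stood lowest in the small subunit. Its protein is the classical target of the S6 kinases and a common readout of mTOR activity. Its signal was 57288 in the Jam3-null and 106190 in the WT sample, a difference of -0.79 (1.73-fold lower). A second probe under this name, far dimmer and placed well away from the first at chr4:86483199-86483258 (mm9), had 164 and 322 and gave -0.88. Whether it reads the same transcript was not tested. Under the 13 processings Rps6 lay between -0.88 and -0.52. The brighter probe, at chr4:86501886-86502077 on mm9 (minus strand, a span wider than the 60 letters of the probe), reads a stretch with a frame free of stop codons and is shown because the call on Rps6 rests on it.
Rps6 probe: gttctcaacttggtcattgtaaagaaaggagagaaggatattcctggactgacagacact

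Rps15, a small-subunit protein, had 44642 and 73076 (-0.61), and Rpsa, also known as the laminin receptor precursor, had 56380 and 87730 (-0.54). Further up the order came Rps3a, with 163130 and 229036 (-0.39), and at the top Rps29 at 0.05.

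At the other end the 6 higher standard genes were all within 1 SD of 0. Rpl35a had 135993 and 139213 (0.06), Rps29 had 330111 and 341211 (0.05), and Rps12 had 230236 and 240488 (0.03). Their raw signals are lower on the Jam3-null array and their differences are above 0 because the Jam3-null array's 75th percentile was lower, at 667.8 against 713.9. Rps27a was at 0.01, Rpl37a at 0.01 and Rpl38 at 0.01. The probes listed for Rps29 and Rps27 lie on chromosomes 2 and 9 in the array's annotation (mm9), while RefSeq places these genes on chromosomes 12 and 3. Ribosomal protein genes have many near-identical processed copies in the genome, which were not searched here, so a signal can include such copies.

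Among the brightest probes of the family were those of Rps18, Rpl7a, Rps23 and Fau. Rps18 had 506405 and 573418 (-0.08), Rpl7a had 377628 and 434438 (-0.11), and Rps23, whose protein lies in the decoding centre, had 386963 and 419696 (-0.02). These differences were all within 1 SD. Fau, which encodes a ubiquitin-like protein fused to a small-subunit protein, had 347845 and 382956 (-0.04). Rps27a, the fusion of ubiquitin with a small-subunit protein, had 132777 and 140494 (0.01), so neither fusion gene differed beyond the error.

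The stalk proteins recruit the translation factors to the ribosome. Rplp1 had 288732 in the Jam3-null and 313003 in the WT sample (-0.02), and Rplp2 had 272586 and 303721 (-0.06). Rplp0, the base of the stalk, had 232039 and 262002 (-0.08) at its brightest probe. Its other 2 probes did not give that value. One had 134750 and 205853 (-0.52), and the other, printed in 10 spots, had a mean of 29593 and 52840, with a difference of -0.74 and an SD from its spots of 0.05. The spots of the last ran from 28102 to 30456 in the Jam3-null and from 50124 to 53994 in the WT sample, so the arrays did not overlap at this probe. The 3 probes of 1 gene thus spread over 0.66 in log2, more than the middle 50% of the family. The 2 dimmer probes are shown because they carry this disagreement; both read a stretch with a frame free of stop codons, the first at chr5:116011423-116011482 on mm9 (plus strand) and the second with no position in the array's annotation.
Rplp0 probe, single spot: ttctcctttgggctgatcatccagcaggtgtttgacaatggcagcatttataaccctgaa
Rplp0 probe, 10 spots: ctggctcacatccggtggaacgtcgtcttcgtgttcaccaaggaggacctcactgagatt

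Probes of the same gene mostly shared a direction and often differed in size. Of 44 genes with at least 2 probes well above background on both arrays, 38 had all probes on the same side of 0 and 6 did not. Restricted to probes at least 10% as bright as the gene's brightest, 26 of 27 genes had all probes on one side, the exception being Rpl7l1. The brightest probe was less negative than the dimmest in 27 of the 44 genes, with medians of -0.15 and -0.34, and in 22 of the 27, with medians of -0.15 and -0.38. Rps3 had -0.13 at its brighter probe (245278 and 287489) and -0.50 at the dimmer one (42898 and 64998). Rpl7 had -0.13, -0.34 and -0.53 at probes of falling brightness. Rps2 had -0.13 at 306648 and 358238 and -0.43 at 128850 and 186118. With the dimmest of these probes in place of the brightest, a choice made after the data were seen, the median of the 86 genes was -0.30.

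Where the probes sat along the transcript also differed. In 41 genes with placed probes the probe nearest the 3' end had a median of -0.15 and the one nearest the 5' end -0.31, and the first was less negative in 27 of 41. The probe nearest the 3' end was also the brightest one in 21 of the 41. Among those 21 it was less negative in 16, with medians of -0.13 at the 3' end and -0.34 at the 5' end. Among the other 20 genes it was less negative in 11, and the medians stood in the opposite order, -0.36 at the 3' end and -0.28 at the 5' end. Very dim second probes gave the widest gaps: Rps24 had -0.08 at its bright probe and -1.15 and -1.14 at probes with signals of 593 and 1407, and of 161 and 381. Rps20 had -0.04 at its bright probe and -1.02 at one with 649 and 1404. Whether those dim probes read other transcript forms was not tested.

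Rpl29 differed from these genes, with 4 probes that spanned from -0.53 to -0.48 although their mean signals ran from 18761 to 77745. A pair of them overlaps and is shown because the probes differ in brightness and have like differences; capitals mark the run of 20 letters that both hold. The first, at chr9:106333409-106333468 on mm9 (plus strand), had 31678 and 47117 (-0.48). The second, at chr9:106333436-106333495, had 14762 and 22761 (-0.53). By these positions the overlap is longer than the run, and letters beside the run differ, so the probes cannot both match that place exactly. Whether they read the same transcript was not tested.
Rpl29 probe, first: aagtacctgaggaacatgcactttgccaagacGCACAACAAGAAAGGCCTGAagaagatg
Rpl29 probe, second: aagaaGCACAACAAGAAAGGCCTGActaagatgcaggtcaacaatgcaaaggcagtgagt

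Across genes the difference followed the brightness of the probe. Over the 78 standard genes, ordered by mean signal and taken in 4 groups of 20, 20, 19 and 19 from dim to bright, the medians were -0.46, -0.27, -0.15 and -0.09. The genes at least 1.5-fold lower numbered 6, 1, 0 and 0 in these groups. Over the 78 genes Spearman's rho between mean log2 signal and difference was 0.58 and Pearson's r 0.49, and rho lay between 0.41 and 0.69 under the 13 processings. Genes are not independent replicates, and these points share 2 arrays, so the correlation is a description. Over all 14351 genes, dim ones included, rho was -0.13, the opposite sign. At the bright end, where the family lies, other genes also had medians nearer 0 past higher signals. Their medians were -0.23 past 10000, -0.20 past 50000 and -0.16 past 100000, beside -0.22, -0.21 and -0.16 for the family. The brightness of a probe depends on its sequence as well as on the mRNA, so it is no ranking of mRNA levels. Rpl21 and Rpl31, read by probes of 3530 and 3709 mean signal, went against the trend at -0.05 and -0.06.

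**Figure D3:**
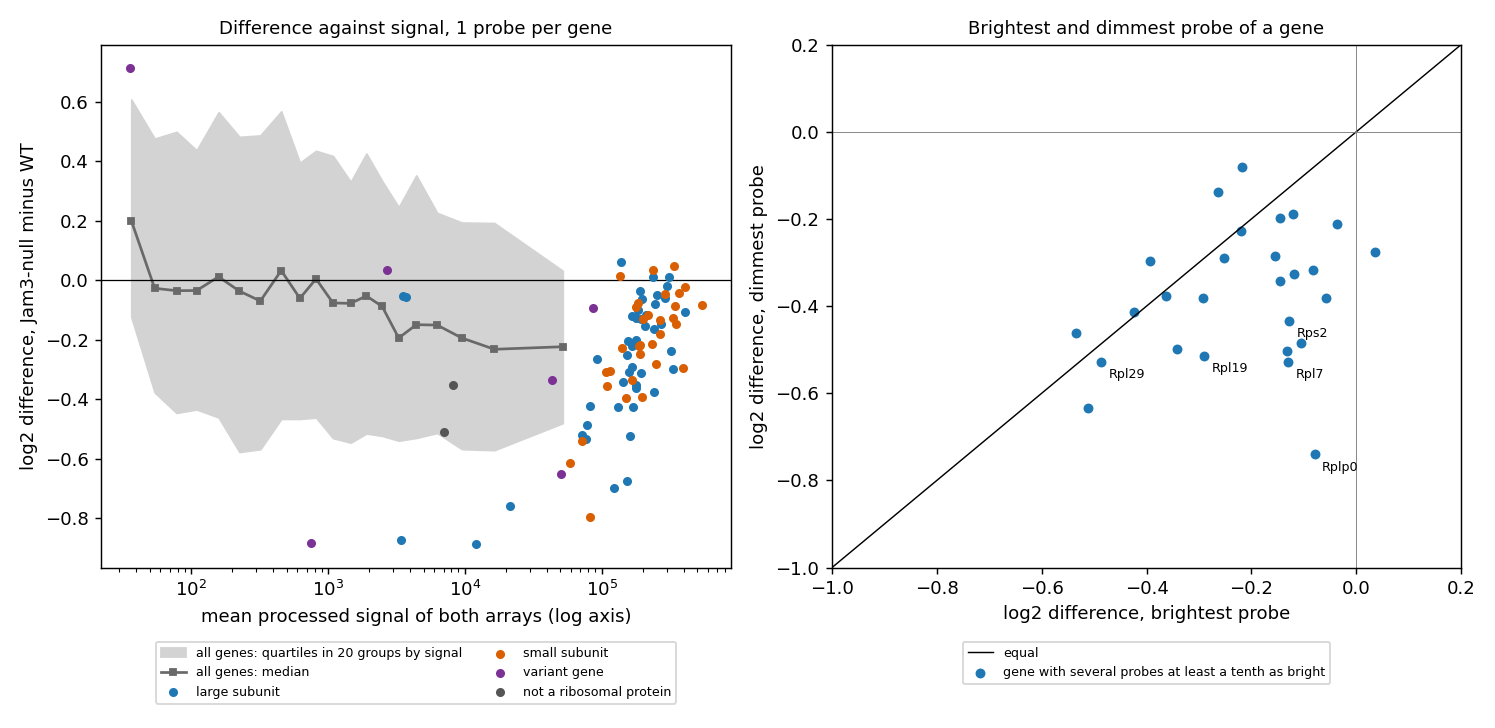
Left, log2 difference against the mean processed signal (log axis) for the 86 measured genes, over the median and quartiles of all genes in 20 groups by signal (grey); the ribosomal protein genes crowd at the bright end, where brighter ones lie nearer 0. Right, difference of the dimmest against the brightest probe for 27 genes with several probes at least 10% as bright as the brightest; 22 points lie below the line of equality, Rplp0 farthest.

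Past the same cuts in signal, other genes had about the same median as the family, but the cuts did not match the 2 sets for brightness. Past 50000 the median signal was 186596 for the family and 86394 for the other genes. The dimmest 20 standard genes, with signals from 3440 to 137603, had a median difference of -0.46. The brightest of 20 groups of all genes, with a median signal of 51968, had -0.22. The median signal of the members lay at the 99.4 percentile of all measured genes, and for 76 of the 86 measured genes the scanner took the value from its low-gain scan on both arrays. For 9 it did so on neither array. For Rpl4 (-0.76) it did so on the WT array only, and the part of this in its difference was not tested. The 297 other genes with a mean signal of at least 50000 had a median of -0.20, and the 75 family genes past that signal -0.21. Past a signal of 100000 the medians were -0.16 for 118 other genes and -0.16 for 65 family genes. The spread differed too: of the 297 other genes 209 were lower, 7 of them by 2-fold or more, and 19 were higher by 2-fold or more. Of the 75 family genes 69 were lower, and 0 differed by 2-fold in either direction. Of the spike-in probes, control transcripts added to the RNA, 8 had a median difference of 0.09, and scaling on them gave the family a median of -0.31 and all genes -0.16.

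Variant genes resemble the gene of a standard ribosomal protein, and several encode a protein that can take its place. They were set beside their standard partners. Rps27l, a target of p53, had 37891 and 63624 (-0.65), while Rps27 had 208696 and 258798 (-0.21). Rps4y2, named Rps4l in RefSeq and tied to a non-coding RNA record in the array's annotation, had 511 and 1006 (-0.88), and its 8 spots without a flag on either array gave an SD of 0.07. Its partner Rps4x had 167138 and 190137 (-0.09). These were the variant genes with the largest negative values, and in both cases the partner was nearer 0.

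Rpl22l1 had 81119 and 92397 (-0.09) at its bright probe and 374 and 237 (0.75) at a dim one, so its direction is unsettled. Rpl22, whose loss occurs in leukaemias, had 67077 and 96043 (-0.42) and -0.70 at a dimmer probe. Rpl36al had 36791 and 49555 (-0.33) and Rpl36a had 133728 and 170196 (-0.25), with its 3 probes between -0.29 and -0.23. Their coding sequences are much alike, and their signals may not be separate. Rpl7l1 had 2658 and 2773 (0.04) at one probe and -0.28 at the other, beside Rpl7 at -0.13.

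Rpl3l, known from striated muscle, had 43.5 and 28.4 (0.71), the highest value in the family. It was also the dimmest measured gene, and with normexp background correction its difference was 0.34. Rpl3, its partner, was at -0.70. Rpl39l, known from testis, had 14.98 and 22.1 and was well above background on the WT array only, so no fold is given, while Rpl39 had 170821 and 195568 (-0.10). Rpl10, the partner of a variant gene that the rule did not find on the array, had 150474 and 206799 (-0.36). With 6 variant genes measured, 4 were lower, 2 of them at least 1.5-fold, and 2 were higher; their median was -0.21 and 0.04 after cyclic loess.

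The genes tied to inherited or acquired red cell failure were spread through the family. Rps19, the first gene found in Diamond-Blackfan anaemia, had 202334 and 234736 (-0.12). Rps26 had 141696 and 191199 (-0.34) and Rps10 had 92765 and 122840 (-0.31). Rps7 was at -0.13, Rps24 at -0.08 and Rpl35a at 0.06. Rps14, the gene of the 5q minus syndrome, had 241912 and 292918 (-0.18). Rpl5 and Rpl11, which with an RNA of the large subunit form a particle that can bind Mdm2 and so raise p53, were at -0.31 (167961 and 222574) and -0.12 (194153 and 224771). A dimmer probe of Rpl5 gave -0.82. None of these genes reached 1.5-fold at its brightest probe. Outside the ribosome, Rps19bp1 had 5556 and 8463 (-0.51), with -0.63 at its second probe, and Rps15a-ps4 had 6906 and 9432 (-0.35).

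The start sites of the genes were read from RefSeq promoter windows (GRCm38.p6, 250 bases before to 50 after a start), which matched 58 of the 78 standard genes. A TOP-like run, here a C followed by at least 4 letters that are each C or T and beginning within 10 bases of the start, was found in 35 of 58 genes (60.3%), against 34.4% of 27025 genes with a window. The letters CCGGAAG, on either strand anywhere in the window, were found in 24 (41.4%) against 9.93%. CTTTCC within 20 bases of the start, on the gene's strand only, was found in 10 (17.2%) against 2.30%, and it can overlap a TOP-like run. TATAAA between 40 and 10 bases before the start was found in 0 against 2.51%. Of these windows the 4 with the lowest and the 4 with the highest difference are shown, 15 bases either side of the annotated start on the gene's strand, with the TOP-like run in capitals. They are shown because the run is what names this class of mRNA.
Rpl27a, chr7:109519180-109519209, plus strand: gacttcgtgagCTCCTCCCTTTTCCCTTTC
Rpl14, chr9:120571502-120571531, plus strand: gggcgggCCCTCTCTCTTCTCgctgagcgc
Rps6, chr4:86857353-86857382, minus strand: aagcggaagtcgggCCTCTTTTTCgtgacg
Rpl4, chr9:64173372-64173401, plus strand: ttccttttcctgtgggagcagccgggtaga
Rpl35a, chr16:33056467-33056496, plus strand: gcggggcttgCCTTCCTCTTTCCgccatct
Rps12, chr10:23787195-23787224, minus strand: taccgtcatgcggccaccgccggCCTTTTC
Rpl37a, chr1:72711245-72711274, plus strand: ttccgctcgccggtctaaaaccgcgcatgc
Rpl38, chr11:114668565-114668594, plus strand: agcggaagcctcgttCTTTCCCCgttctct

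Runs stood at both ends of the order. The 35 genes with a run had a median difference of -0.22 and a range from -0.89 to 0.06, and the 23 without had a median of -0.20 and a range from -0.76 to 0.01. With and without CCGGAAG the medians were -0.23 and -0.18. Rpl35a has 3 annotated starts, of which the one with the run is shown. A missing match says only that these letters are not in the window of an annotated start.

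Lists of genes around the ribosome were set beside the family. The counts of lower genes in this and the following lists stand beside 55.2% of all measured genes lower. The other genes with TOP mRNAs, translation factors and structural proteins of other kinds, were lower in 18 of 18 cases, with a median of -0.50 and 3 at least 2-fold lower, where 8.63% of all measured genes were. Npm1, a nucleolar chaperone of ribosome assembly, had 57516 and 131753 (-1.10), Eif4b had 3013 and 6727 (-1.06) and the noncoding Gas5 had 24504 and 54079 (-1.05). Eef1a1, an elongation factor, was at -0.08 and Gnb2l1, the small-subunit scaffold RACK1, at -0.03; both were chosen after their values were seen. Npm1 also stands in the biogenesis list. Eif4b, Eef2, Eef1g, Eif3e, Eef1d, Eif3f, Eef1b2, Eif3h, Pabpc1 and Eef1a1 also stand among the translation factors.

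Translation factors were lower in 40 of 42 measured genes, with a median of -0.56; 3 of the 42 were at least 2-fold lower, beside the same 8.63% of all measured genes. Besides Eif4b these were Eif3k, a subunit of the factor that holds the small subunit (4153 and 9266, -1.06), and Eif2s3x, a subunit of the factor that brings the initiator tRNA (4404 and 9757, -1.05). Eif2s3x lay between -1.14 and -0.09 under the processings.

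Ribosome biogenesis genes stood lowest. All 57 were lower, 46 of them at least 1.5-fold and 23 at least 2-fold (beside 20.3% and 8.63% of all measured genes), with a median of -0.92. Nop16, a nucleolar protein of large-subunit assembly, had 1682 and 6434 (-1.84). Gnl3, which encodes nucleostemin, had 1227 and 4159 (-1.67), and Gar1, a protein of the particles that modify ribosomal RNA, had 632 and 1869 (-1.47). Mitochondrial ribosomal proteins, which make the separate ribosome of the mitochondrion, were lower in 70 of 76 genes, with a median of -0.62; 8 of the 76 were at least 2-fold lower, again beside 8.63%. The lowest of them were Mrps10 with 4396 and 13049 (-1.47), Mrpl12 with 11685 and 33160 (-1.41) and Mrps27 with 394 and 1087 (-1.37).

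**Figure D4:**
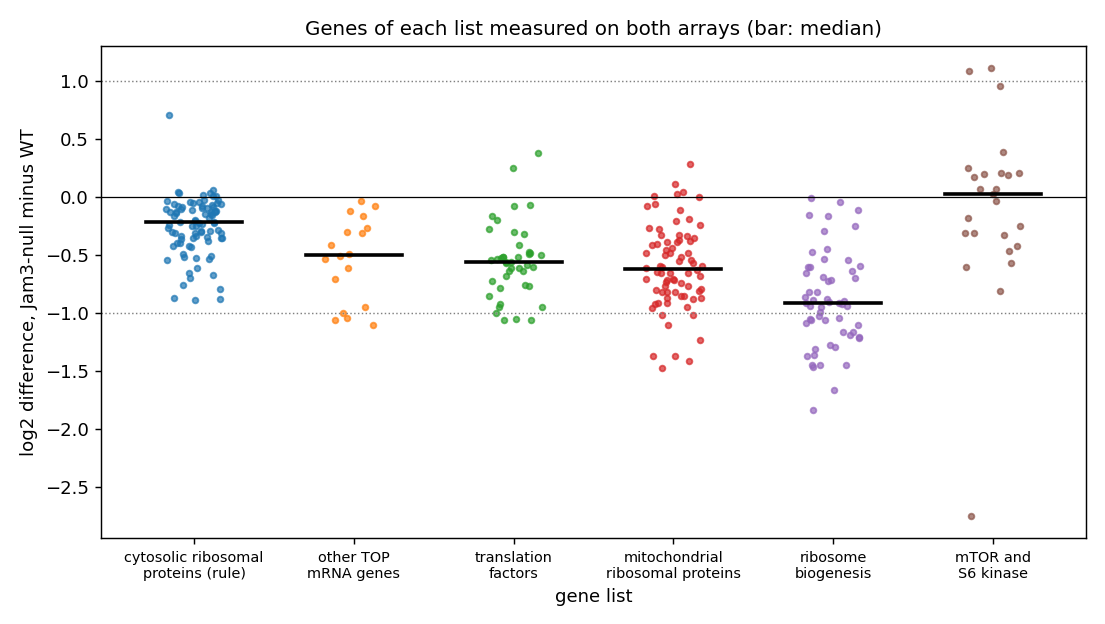
Log2 difference, Jam3-null minus WT, of each measured gene of the family and of 5 related lists (points, spread sideways for sight), with the median as a bar and 2-fold as dotted lines. The medians step down from -0.22 in the family to -0.92 in ribosome biogenesis, and the mTOR and S6 kinase list scatters around 0.02.

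Genes of mTOR and S6 kinase signalling went both ways: 12 of 25 were lower, and the median was 0.02. Sesn3, an inhibitor of mTOR complex activity, had 49.3 and 354 (-2.75). Rps6ka1, a kinase of the protein of Rps6, had 19062 and 9434 (1.11), and Mlst8, an mTOR complex subunit, had 5988 and 3019 (1.08). The kinase genes Rps6kb1 and Rps6kb2 were at -0.33 and -0.31, and Larp1, which binds TOP runs, was at -0.80. These last 3 were chosen after their values were seen.

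Relative to the median of all genes under the same processing, the family lay at -0.14 in the main processing and between -0.36 and 0.03 in the others. On this scale ribosome biogenesis lay at -0.84 (from -1.06 to -0.79), mitochondrial ribosomal proteins at -0.55 (from -0.77 to -0.46), translation factors at -0.49 (from -0.71 to -0.35) and the other TOP genes at -0.42 (from -0.64 to -0.28). The medians of these 4 lists were below that of the ribosomal protein genes under each processing. The lists are not separate, since many of the other TOP genes are also translation factors. Each list is described by its counts and median on the same 2 arrays, with no test.

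**Figure D5:**
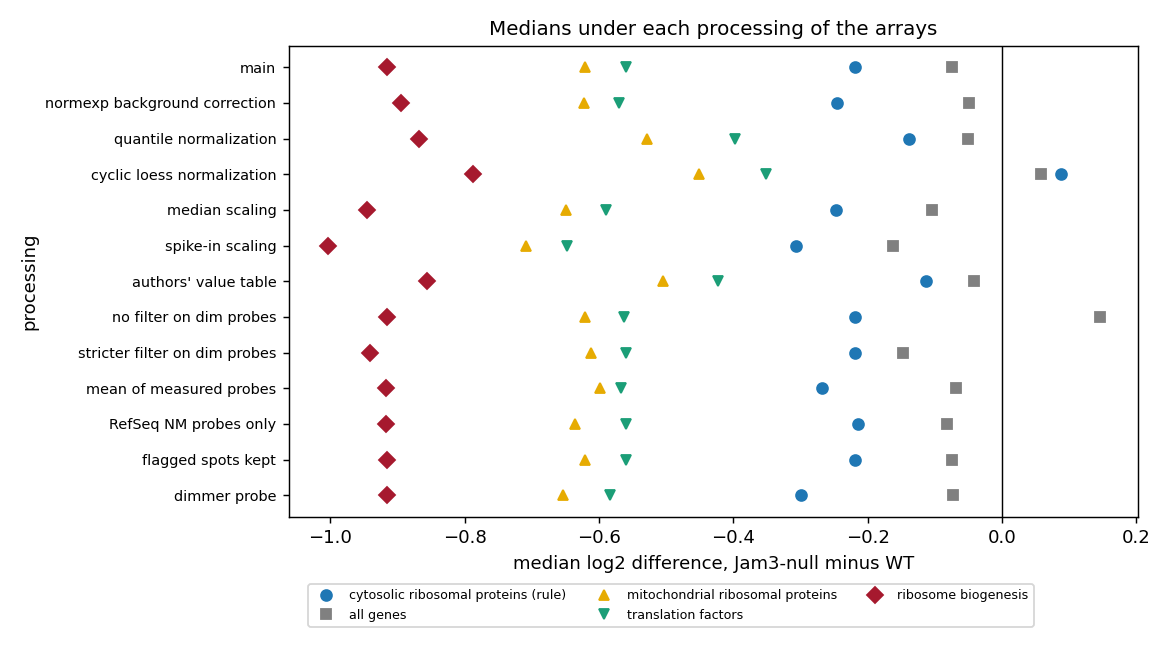
Median log2 difference, Jam3-null minus WT (horizontal), of the family, of all genes and of 3 related lists under each of 13 processings (vertical). The family runs from -0.31 to 0.09 and crosses 0 with cyclic loess, while ribosome biogenesis stays at or below -0.79.

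For single genes the sign was steadier in part of the family. Of the 86 genes 31 were lower under each of the 13 processings that kept them. Another 1 (Rpl3l) was higher under each that kept it, and 54 had both signs. Rpl3l and Rps4y2 were dropped by the stricter filter on dim probes. Rps4y2 and Rps15a-ps4, both among the 31, were dropped with RefSeq NM probes only. Rps6, Rpl3, Rpl4, Rpl14, Rpl27a, Rpl28, Rps15, Rpsa and Rps27l were among the 31. Rpl5 and the stalk genes were not.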

How the data were processed

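Cy3 intensities were measured on 2 one-colour Agilent arrays, 1 per genotype, with 43379 non-control spots each. Per the file headers, the deposited processed intensity was background-subtracted and detrended by Feature Extraction 10.7.3.1 (10.7 in the submitters' processing notes), with low-gain readings scaled up for bright spots, and was not normalized between arrays. The authors' deposited value table holds log2 values and served as an alternative only. Both arrays share a slide and a scan.

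Spots with a flag for non-uniformity or as a population outlier were dropped. Log2 intensities were scaled to each array's 75th percentile of all non-control spots and averaged per probe, and a gene took its probe with the highest mean signal. A gene counted as measured when well above background on both arrays. All 87 members matched RefSeq genes (82 by accession, the rest by symbol), and probe positions come from the array files (mm9). Members, lists, thresholds and named genes were chosen with earlier results of these data known. Values are named for the 8 highest and 8 lowest members, the 5 brightest, the variant genes and partners, stalk, fusion, anaemia and p53-related genes, and the 3 largest differences of each list. A few of these genes are not reported here. With 1 array per genotype no test was made, and precision is limited by their number. The alternatives were normexp background correction (offset 50) of the deposited mean and background intensities, quantile, cyclic loess, median and spike-in scaling, the value table, the filter on dim probes, the choice of probe and the flagged spots. The gene step was tested on simulated data. Python 3.11.15 (matplotlib 3.10.9, pandas 2.3.3, numpy 2.4.6) and R 4.3.3 (limma 3.58.1) were used.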

Additional observations from a re-analysis of the deposited data

How the results depend on the processing

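Results are compared with the main processing given in the report. With cyclic loess the medians changed sign: 0.089 for the family, 0.085 for the large subunit, 0.13 for the small subunit and 0.037 for variant genes, with 31 genes lower and 3 at least 1.5-fold lower. The same setting turned 11 of the genes reported by more than their error: Rpl15 0.086, Rpl19 0.016, Rpl30 0.015, Rpl36a 0.050, Rpl41 0.036, Rpl5 0.0026, Rpl9 0.098, Rps13 0.041, Rps21 0.094, Rps25 0.065 and Rps27 0.11. It also gave medians of -0.35 for translation factors, -0.27 for other TOP genes, -0.79 for biogenesis and -0.45 for mitochondrial ribosomal proteins, with 0, 0, 14 and 5 genes at least 2-fold lower. With spike-in scaling the medians were -0.31 (family), -0.32 (large), -0.29 (small), -0.30 (variant), -0.65, -0.59, -1.004, -0.71 (the same 4 lists) and -0.0647 (mTOR and S6 kinase). That setting had 14 family genes at least 1.5-fold lower, 7 translation factors and 5 other TOP genes at least 2-fold lower, and 1 mTOR gene at least 2-fold higher. With the authors' value table they were -0.11, -0.10, -0.11, -0.087, -0.42, -0.33 and, for mitochondrial ribosomal proteins, -0.51, with 5 family genes 1.5-fold lower and 0 translation factors and 1 other TOP gene 2-fold lower. Quantile normalization gave -0.0688 (variant), -0.40, -0.33 and -0.53 (mitochondrial), with 0 translation factors and 1 other TOP gene 2-fold lower. The mean of a gene's probes left 1 translation factor, 1 other TOP gene and 5 mitochondrial genes 2-fold lower.

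Normexp correction left 0 family genes 1.5-fold higher, and so did the stricter filter, which dropped Rpl3l. The stricter filter gave the mTOR list a median of 0.13 with 0 genes 2-fold lower, and the dimmer probe (added after the data were seen) gave it -0.094 with 1 gene 2-fold higher. The median of variant genes was -0.33 with no filter, -0.092 with RefSeq NM probes and -0.30 with the dimmer probe. The cause of these changes was not tested, apart from scalings that shift all genes by construction. The remaining 233 of 288 summary values moved by less than the repeat-spot SD or 1.5 times; among them the mTOR list's median, near 0, changed sign to -0.0058 (median scaling), -0.011 (mean of probes) and -0.037 (RefSeq NM probes). Of 1133 values of the 95 genes reported 1031 stayed within their error, 91 moved past it and 11 turned as listed; 34 of the 91 and 44 of the 1031 changed sign from a main value within its error. The 1 array per genotype limits every statement, and the dimmest genes have the largest error. No paired analysis was possible because each genotype has 1 array.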
